A study of Mus musculus with 4 samples.

Results

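The miR-26 family in mouse was examined as its mature 5p miRNAs, mmu-miR-26a-5p and mmu-miR-26b-5p (miR-26a-5p and miR-26b-5p below), in extracellular vesicles (EVs) released by primary hepatocytes. These 2 miRNAs were taken by their exact names from the 1881 mouse miRNAs carried by a 1-colour Agilent array. EVs of 4 groups were profiled, with 1 array for each group. HFD-LKO EV and Chow-LKO EV came from hepatocytes of Ggpps LKO mice fed a high-fat diet (HFD) or chow, and HFD-EV and Chow-EV came from hepatocytes of wild-type (WT) mice on the same diets. All mice were B6 males, 20 weeks old, with 12 weeks on the HFD in the HFD groups, and the hepatocytes were cultured for 48 h before the EVs were collected. Ggpps encodes a synthase of the isoprenoid that anchors small GTPases to membranes. In LKO mice its floxed alleles were deleted by Mx1-Cre, which is driven by an interferon-inducible promoter and induced by injection of double-stranded RNA. The study calls this knockout liver-specific, although the Mx1 promoter itself is not restricted to hepatocytes, and its methods do not say whether WT mice were also injected. The array has no probe for Ggpps, so the deletion could not be checked in these samples. The paper reports Ggpps in livers of WT and LKO mice by real-time PCR and Western blot. Each array held EVs pooled from 4 animals. No group had a replicate, and no test between groups was possible. Every error written with ± is the SD between replicate spots within an array, which leaves out the spread between animals, cultures and EV preparations.

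miRNAs guide the silencing complex to mRNAs that pair with their seed, bases 2 to 8, and miRNAs with the same seed form a family with largely shared targets. The miR-26 genes lie inside genes of the C-terminal domain small phosphatases and are expressed together with them. In mouse liver, miR-26a is known to improve insulin sensitivity and to restrain glucose production and lipid synthesis. It also acts as a tumour suppressor in mouse liver, represses the histone methyltransferase Ezh2, and in human preadipocytes the family promotes differentiation into adipocytes.

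The mature sequences are shown to mark what the members share and where an array probe can tell them apart. In RefSeq (GRCm38.p6), both members, all 3 of their genes and the 3 opposite arms were found. Capitals mark the seed.
miR-26a-5p: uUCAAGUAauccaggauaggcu
miR-26b-5p: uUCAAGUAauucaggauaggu
Of 1679 mature miRNA names in the RefSeq table, only these 2 have the seed UCAAGUA. Outside the seed, miR-26b-5p differs from miR-26a-5p by C11U and C21U, with the base of miR-26a-5p first and positions counted from the 5′ end. miR-26b-5p is also shorter, at 21 against 22 bases. miR-26a-5p is made from a pair of genes, so its signal cannot be assigned to either. Mir26a-1 holds it at chr9:119031811-119031832 on the plus strand, within the span of Ctdspl. Mir26a-2 holds it at chr10:126995543-126995564 on the plus strand, within the span of Ctdsp2. miR-26b-5p comes from Mir26b, at chr1:74394324-74394344 on the plus strand, within the span of Ctdsp1.

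The probe sequences that the authors' table pairs with the members are shown because the members differ at so few bases. Capitals mark the probe bases opposite positions 11 and 21.
probe for miR-26a-5p: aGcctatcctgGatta
probe for miR-26b-5p: AcctatcctgAattacttga
The miR-26a-5p probe pairs with bases 7 to 22 of its target and has 2 mismatches to miR-26b-5p, which also lacks 1 of the bases. The miR-26b-5p probe pairs with bases 2 to 21 and has 2 mismatches to miR-26a-5p. Each member has 2 probes on the array, here called probe 1 and probe 2, and the table gives 1 sequence for each member. How far a probe for 1 member binds the other was not measured. The level of miR-26a-5p is therefore not set against that of miR-26b-5p, and only their ratios between groups are compared.

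The array signals were background-subtracted intensities in arbitrary units. Between 482 and 508 miRNAs were above background in each group (25.6% to 27.0% of those on the array), and 443 were so on all 4 arrays. The scaled signal is the signal over a factor taken from each array, the 75th percentile across these 443 miRNAs, which lay between 507.9 and 614.1. Signals were neither saturated nor near background for the members, since negative control spots had an SD of 3.27 to 6.63. In a pool of secreted EVs, fewer EVs of a kind and fewer copies per EV cannot be told apart. The paper gives the same EV load for every group. It also reports that hepatocytes released more EVs on the HFD and fewer without Ggpps. The ratios below leave out such changes in output and are not amounts released by hepatocytes.

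miR-26a-5p was the member that varied more among the groups. Its signal was 1206 ± 38.9 in HFD-LKO EV, 968.8 ± 33.6 in Chow-LKO EV, 2012 ± 62.0 in HFD-EV and 1351 ± 28.4 in Chow-EV. The scaled signals were 2.29 ± 0.074 in HFD-LKO EV, 1.58 ± 0.055 in Chow-LKO EV, 3.59 ± 0.11 in HFD-EV and 2.66 ± 0.056 in Chow-EV. From high to low, the order of scaled signals was HFD-EV, Chow-EV, HFD-LKO EV and Chow-LKO EV, and each neighbour in this order lay more than 2 spot SDs from the next. The closest neighbours were HFD-LKO EV and Chow-EV, with a log2 ratio of Chow-EV over HFD-LKO EV of 0.22 ± 0.06.

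miR-26b-5p had the same order of groups with a narrower range. Its signal was 1810 ± 26.7 in HFD-LKO EV, 1799 ± 47.8 in Chow-LKO EV, 2324 ± 58.0 in HFD-EV and 2043 ± 51.1 in Chow-EV. After scaling these were 3.43 ± 0.051 in HFD-LKO EV, 2.93 ± 0.078 in Chow-LKO EV, 4.14 ± 0.10 in HFD-EV and 4.02 ± 0.10 in Chow-EV. HFD-EV and Chow-EV, the upper neighbours, did not differ by more than 2 spot SDs. The unscaled signals of both LKO groups were nearly equal, and they stood apart only after division by a scaling factor of 527.7 in HFD-LKO EV and 614.1 in Chow-LKO EV.

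As a share of the summed signal of all miRNAs above background, miR-26a-5p made up 0.195% in HFD-LKO EV, 0.136% in Chow-LKO EV, 0.308% in HFD-EV and 0.219% in Chow-EV. The shares of miR-26b-5p were 0.293% in HFD-LKO EV, 0.253% in Chow-LKO EV, 0.356% in HFD-EV and 0.331% in Chow-EV. These are shares of signal, not of molecules. For both members the share was highest in HFD-EV and lowest in Chow-LKO EV.

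Each of the 4 probes had 15 spots per array, of which 14 or 15 were used, and all of them were well above background. The coefficient of variation between spots was 1.69% to 5.26%. For probe 1 of miR-26a-5p, the spots of scaled signal ran from 1.324 to 1.566 in HFD-LKO EV, from 0.9932 to 1.133 in Chow-LKO EV, from 2.054 to 2.385 in HFD-EV and from 1.651 to 1.813 in Chow-EV. No spot range of this probe overlapped with that of another group. How many probes of other miRNAs also had no overlap was not counted, so it cannot be called particular to miR-26a-5p. By another rule, more than 2 spot SDs, 33.3% of all miRNAs were higher and 23.9% lower in HFD-EV over Chow-EV. These shares were 37.1% and 18.7% in HFD-LKO EV over Chow-LKO EV and 20.3% and 36.5% in Chow-LKO EV over Chow-EV. In HFD-LKO EV over HFD-EV they were 24.7% and 36.3%. For probe 1 of miR-26b-5p, the spots ran from 2.051 to 2.183 in HFD-LKO EV, from 1.714 to 1.892 in Chow-LKO EV, from 2.367 to 2.719 in HFD-EV and from 2.314 to 2.574 in Chow-EV. Here the ranges of HFD-EV and Chow-EV overlapped, as they did for probe 2.

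**Figure D1:**
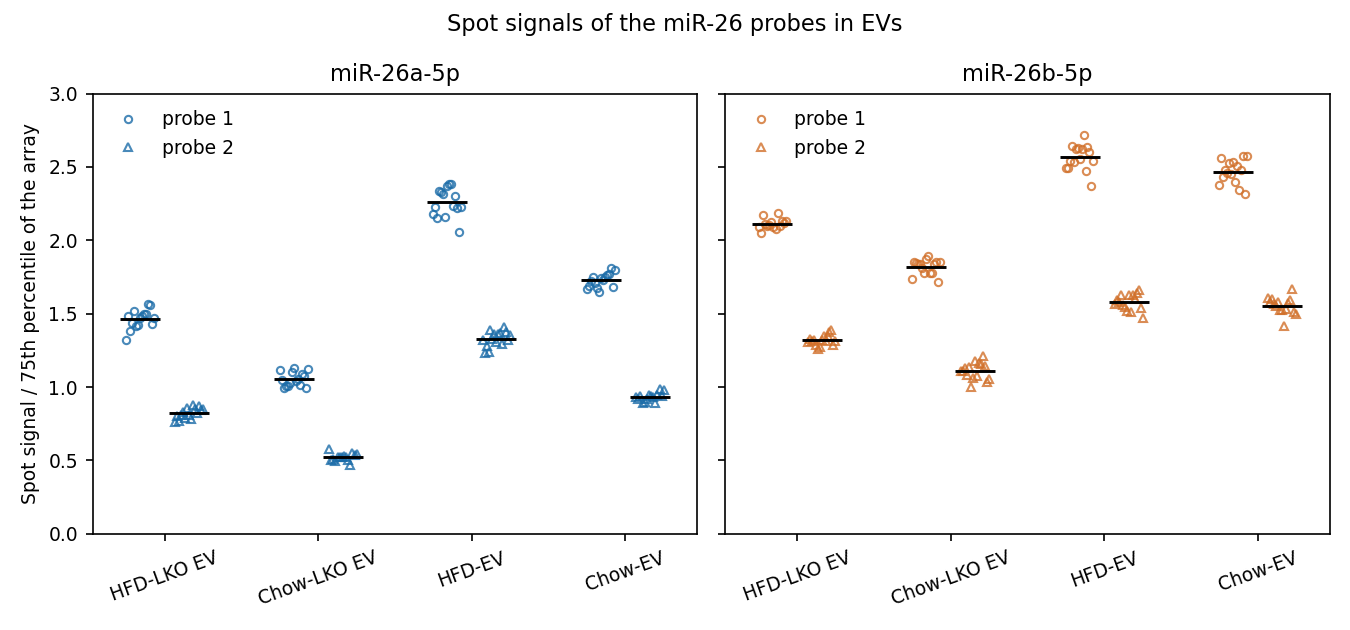
Spot signals of the probes of miR-26a-5p and miR-26b-5p, divided by the 75th percentile of the array (y axis), in the 4 groups of EVs (x axis). Each symbol is 1 spot and each bar the mean of 14 or 15 spots of a probe on 1 array. The miR-26a-5p spots separate into 4 levels for each probe, whereas the miR-26b-5p spots of HFD-EV and Chow-EV overlap. Such separation was not counted for other miRNAs and cannot be called particular to miR-26a-5p.

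The effect of the diet was first followed in WT EVs, where the study asked whether lipid overload changes what hepatic EVs carry. HFD-EV carried more miR-26a-5p signal than Chow-EV, with a log2 ratio of 0.43 ± 0.05 (1.35-fold). This was the 104th highest of the 477 miRNAs measured on both arrays, whose median was 0.10. miR-26b-5p had a log2 ratio of 0.04 ± 0.05 and lay within 2 spot SDs of 0, and its sign was not stable, with -0.05 under the percentile over all miRNAs. Thus 1 of the 2 members was higher by more than 2 spot SDs, a difference that 33.3% of all measured miRNAs also showed, while 23.9% were lower by this rule and no member was. Neither member reached 2-fold, as did 2.31% of the miRNAs upwards and 1.68% downwards.

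In LKO EVs the same diet was compared without Ggpps. miR-26a-5p was higher in HFD-LKO EV than in Chow-LKO EV by a log2 ratio of 0.54 ± 0.07 (1.45-fold), the 83rd highest of 466, with a median over all of 0.14. miR-26b-5p was higher by 0.23 ± 0.04 (1.17-fold), the 196th highest, but was at -0.15 with quantile normalisation and at 0.01 without scaling. Both members were higher by more than 2 spot SDs, as were 37.1% of the miRNAs measured, and neither was lower, as 18.7% were. Neither was 2-fold higher or lower, as 3.43% and 1.07% were.

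The loss of Ggpps was compared on chow and on the HFD, to ask whether the EV cargo depends on this gene. On chow, miR-26a-5p was 1.69-fold lower in Chow-LKO EV than in Chow-EV, at a log2 ratio of -0.75 ± 0.06, the 39th lowest of 463 miRNAs with a median of -0.13. miR-26b-5p was 1.37-fold lower there, at -0.46 ± 0.05, the 109th lowest, but was at -0.18 without scaling, -0.26 with quantile normalisation and -0.28 in the authors' normalised signals. Without scaling miR-26a-5p was at -0.48. Both members were lower by more than 2 spot SDs, which held for 36.5% of the miRNAs, while 20.3% were higher. A 2-fold decrease, which neither member had, occurred in 3.89%, and a 2-fold increase in 2.81%.

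On the HFD, miR-26a-5p was 1.57-fold lower in HFD-LKO EV than in HFD-EV, at -0.65 ± 0.06, the 77th lowest of 474 miRNAs with a median of -0.06. miR-26b-5p was 1.21-fold lower, at -0.27 ± 0.04, the 169th lowest, and lay between -0.53 with quantile normalisation and -0.17 with the percentile over all miRNAs. Both members again passed 2 spot SDs, with 36.3% of all miRNAs lower and 24.7% higher by this rule. Neither was 2-fold lower, as were 6.54% of the miRNAs, and 7.38% were 2-fold higher. The 4 comparisons share arrays in pairs, so their values stand side by side and are not independent of one another.

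**Figure D2:**
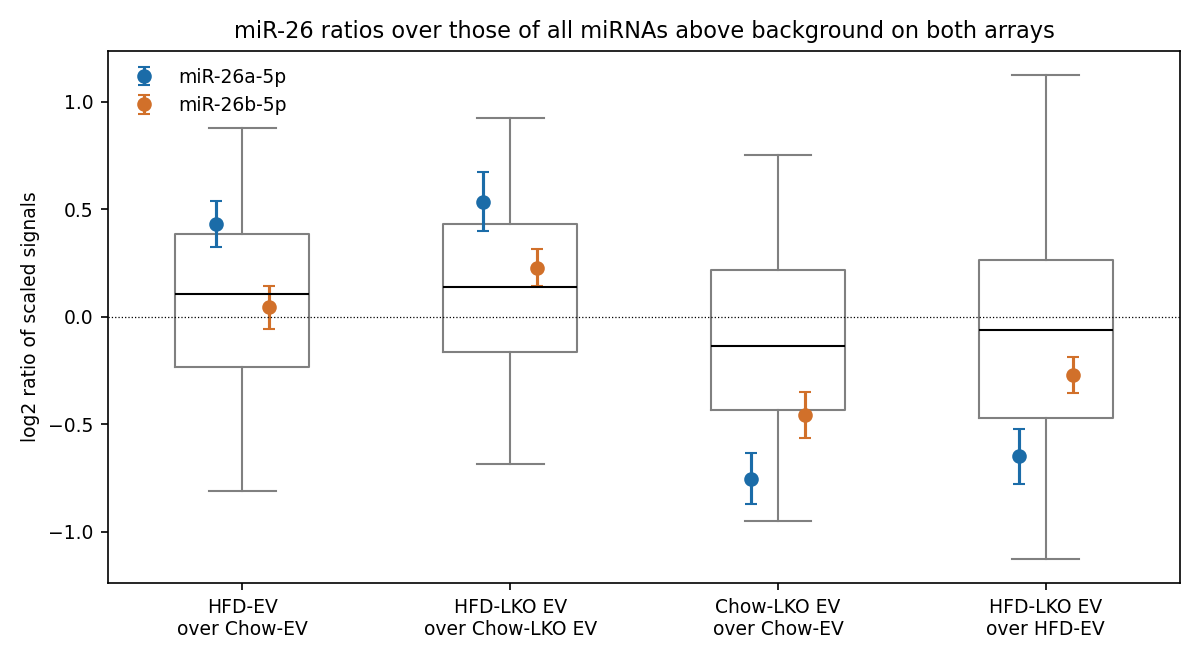
Log2 ratios of scaled signals (y axis) of miR-26a-5p and miR-26b-5p in the 4 comparisons (x axis), with bars of 2 spot SDs. Boxes give the quartiles and the median of all miRNAs above background on both arrays and whiskers their 5th and 95th percentiles. miR-26a-5p lies outside the box in all 4 comparisons (0.43, 0.54, -0.75 and -0.65) and within the whiskers, and miR-26b-5p lies nearer to 0 (0.04, 0.23, -0.46 and -0.27, of which 0.04 and 0.23 change sign in at least 1 alternative setting).

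The median ratio of all miRNAs moved with the scaling. In HFD-EV over Chow-EV it was 0.25 without scaling in place of 0.10, and in Chow-LKO EV over Chow-EV it was 0.14 in place of -0.13. Relative to the median, which any division of an array by a constant leaves unchanged, miR-26a-5p was at 0.33 in HFD-EV over Chow-EV and at 0.40 in HFD-LKO EV over Chow-LKO EV. It was at -0.62 in Chow-LKO EV over Chow-EV and at -0.59 in HFD-LKO EV over HFD-EV. miR-26b-5p relative to the median was at -0.06, 0.09, -0.32 and -0.21 in these same 4 comparisons. Its diet ratios were thus near those of the average miRNA, and its genotype ratios were below it.

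The probes of each member gave the same direction. For miR-26a-5p, probe 1 was at 0.39 ± 0.07 and probe 2 at 0.51 ± 0.07 in HFD-EV over Chow-EV. In Chow-LKO EV over Chow-EV the same probes were at -0.71 ± 0.08 and -0.83 ± 0.08. For miR-26b-5p in Chow-LKO EV over Chow-EV, probe 1 was at -0.44 ± 0.06 and probe 2 at -0.49 ± 0.09. In HFD-LKO EV over HFD-EV these probes were at -0.28 ± 0.05 and -0.26 ± 0.06. Probes of 1 member share the array and the RNA and are not replicates of a group.

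The ratios of the members differed on these single arrays, although the members share a seed. The ratio of miR-26a-5p exceeded that of miR-26b-5p by 0.39 ± 0.07 on the log2 scale in HFD-EV over Chow-EV and by 0.31 ± 0.08 in HFD-LKO EV over Chow-LKO EV. The difference, miR-26a-5p minus miR-26b-5p, was -0.30 ± 0.08 in Chow-LKO EV over Chow-EV and -0.38 ± 0.08 in HFD-LKO EV over HFD-EV. Each of the 4 differences was larger than 2 spot SDs, and none depends on a scaling by a constant. All 4 kept their sign under the 11 alternatives tried, with the smallest size, -0.09, for HFD-LKO EV over HFD-EV under quantile normalisation. This comparison of the members was chosen after their values were seen, and other pairs of miRNAs were not compared in this way. How far binding of a probe to the other member enters these differences was not measured.

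Whether the diet ratio differed with the genotype was described by the diet ratio in LKO EVs minus that in WT EVs. For miR-26a-5p the difference was 0.10 ± 0.09, within 2 spot SDs of 0, and it was -0.26 without scaling. For miR-26b-5p it was 0.19 ± 0.07, more than 2 spot SDs from 0, with -0.18 without scaling and -0.27 with quantile normalisation. How many miRNAs passed 2 spot SDs in this difference was not counted. Over the 443 miRNAs measured on all 4 arrays, the median of this difference was 0.06 and the median of its size was 0.20. The differences of both members were thus no larger than that of a typical miRNA.

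**Figure D3:**
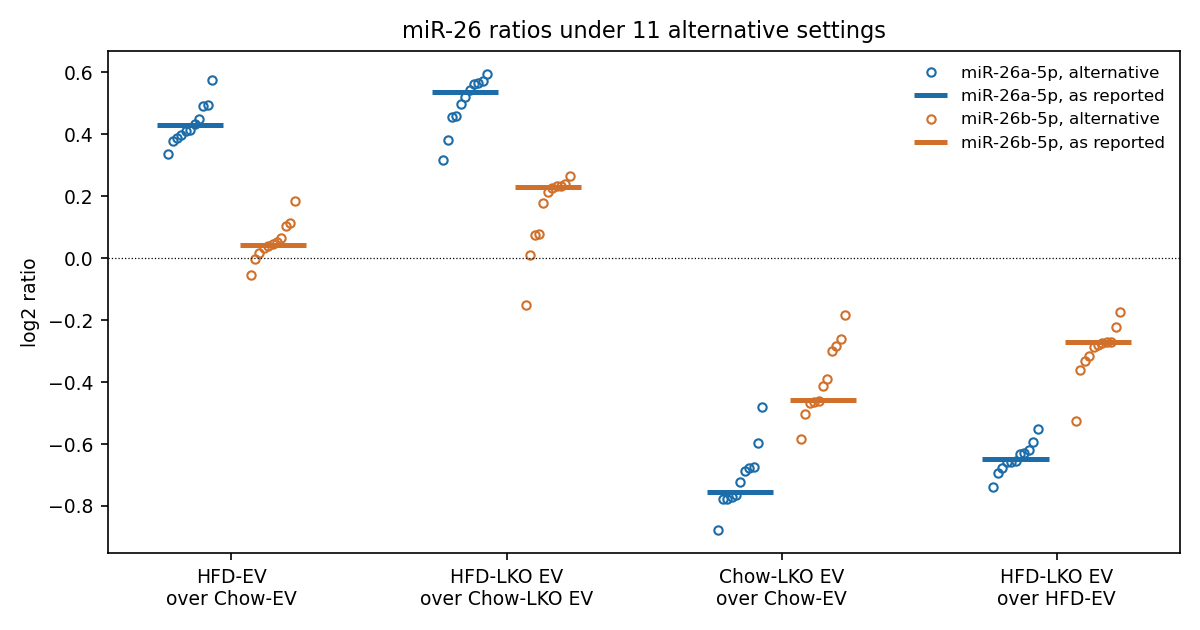
Log2 ratios (y axis) of miR-26a-5p and miR-26b-5p in the 4 comparisons (x axis) as reported (bars) and under 11 alternative settings of scaling, background, spots and probes (circles). The miR-26a-5p ratios stay on their side of 0 in all settings, from 0.34 to 0.57 in HFD-EV over Chow-EV and from -0.88 to -0.48 in Chow-LKO EV over Chow-EV, while miR-26b-5p crosses 0 in both diet comparisons.

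The opposite arms of the same hairpins are usually degraded and were looked for to see whether they were carried too. Their seeds, in capitals, differ from that of the members.
miR-26a-1-3p: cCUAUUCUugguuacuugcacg
miR-26a-2-3p: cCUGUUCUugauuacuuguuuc
miR-26b-3p: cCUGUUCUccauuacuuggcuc
miR-26a-1-3p and miR-26a-2-3p could each have told which gene the miR-26a hairpin came from. None of the 12 values of these 3 miRNAs was above background. Their signals lay between -3.82 and 1.99, and 1 of the 347 spots used was marked as well above background. They were not detectable at this signal, and no ratio was formed.

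The miRNAs with the pattern most like that of each member were found among the 442 others measured on all 4 arrays, by the root mean square difference of log2 scaled signals, each centred on its own mean over the 4 arrays. For miR-26a-5p the nearest were miR-29b-3p at 0.0526, miR-98-5p at 0.0627, miR-31-3p at 0.0883, miR-1934-3p at 0.0891 and miR-22-5p at 0.0918. Among them, miR-29b-3p limits collagen expression, and miR-98-5p is a member of the let-7 family. The sequences of the nearest miRNAs are given to show their seeds beside UCAAGUA of miR-26.
miR-29b-3p: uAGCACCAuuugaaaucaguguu
miR-98-5p: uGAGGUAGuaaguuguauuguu
Neither seed matches that of miR-26. miR-29b-3p was at 0.58 ± 0.07 in HFD-EV over Chow-EV, 0.52 ± 0.05 in HFD-LKO EV over Chow-LKO EV, -0.66 ± 0.06 in Chow-LKO EV over Chow-EV and -0.71 ± 0.07 in HFD-LKO EV over HFD-EV. miR-98-5p was at 0.49 ± 0.09, 0.52 ± 0.12, -0.60 ± 0.09 and -0.57 ± 0.12 in the same 4 comparisons. Both neighbours thus had the signs of miR-26a-5p in all 4 comparisons, as the measure of likeness favours.

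For miR-26b-5p the nearest was miR-7028-5p at 0.0314, followed by miR-7216-5p at 0.0531, miR-1187 at 0.0565, miR-7221-3p at 0.0579 and miR-671-5p at 0.0624. miR-7028-5p was at 0.08 ± 0.14 in HFD-EV over Chow-EV and at -0.38 ± 0.14 in Chow-LKO EV over Chow-EV. The members were not each other's nearest miRNAs by this measure, which counts the size of differences as well as their direction. Both members had the same order of groups. miR-26b-5p ranked 73 by likeness to miR-26a-5p, and miR-26a-5p ranked 162 by likeness to miR-26b-5p, with a root mean square difference of 0.2431. These ranks rest on 4 arrays and describe them only.

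**Figure D4:**
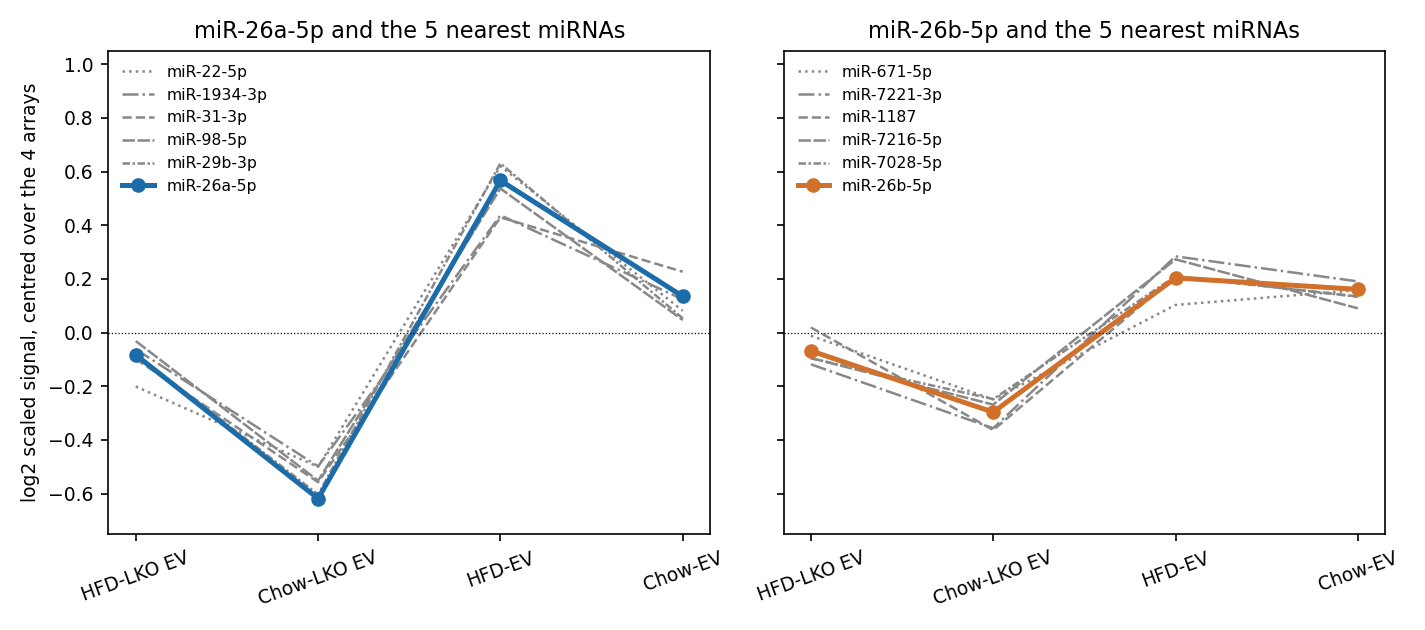
Log2 scaled signals centred over the 4 arrays (y axis) in the 4 groups of EVs (x axis) for each miR-26 member (thick line) and its 5 nearest miRNAs (grey lines). miR-26a-5p is at -0.62 in Chow-LKO EV and 0.57 in HFD-EV, and miR-26b-5p at -0.30 and 0.20 there.

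The members were set beside 3 other families known to act in related processes, and the differences between families were not tested. The miR-30 family, which like miR-26 acts in adipocyte differentiation in human cells, had 5 measured members. In HFD-EV over Chow-EV the median ratio was 0.24 for miR-26, against -0.15 for miR-30 (-0.003 without scaling). Of the miR-30 members 1 was higher and 3 were lower beyond 2 spot SDs, beside 33.3% and 23.9% of all miRNAs. In HFD-LKO EV over Chow-LKO EV the median was 0.38 for miR-26, against -0.01 for miR-30 (-0.23 to 0.02 over 10 alternative settings). In Chow-LKO EV over Chow-EV it was -0.61 for miR-26, against 0.03 for miR-30 (-0.10 to 0.30 over those settings), with 2 members lower and 0 higher, beside 36.5% and 20.3% of all miRNAs. In HFD-LKO EV over HFD-EV it was -0.46 for miR-26, against 0.03 for miR-30 (-0.06 to 0.13). The miR-30 median was thus near 0 where the miR-26 median was below it.

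miR-101a-3p and miR-101b-3p repress Ezh2, as miR-26a does, and did not move alike. Unlike the miR-26 members, they do not have the same seed in RefSeq. It is ACAGUAC in miR-101a-3p and UACAGUA in miR-101b-3p, so by seed they are not 1 family. In Chow-LKO EV over Chow-EV, miR-101a-3p was at -0.18 ± 0.05 and miR-101b-3p at 0.74 ± 0.11. In HFD-LKO EV over HFD-EV they were at -0.23 ± 0.06 and 0.68 ± 0.12. Of the other miRNAs listed as repressors of Ezh2, miR-138-5p and miR-214-3p were not above background on any array. In the diet comparisons miR-101a-3p was at 0.07 ± 0.06 in HFD-EV over Chow-EV and 0.01 ± 0.06 in HFD-LKO EV over Chow-LKO EV, within 2 spot SDs of 0, and miR-101b-3p was at -0.35 ± 0.13 and -0.41 ± 0.10.

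miR-103-3p and miR-107-3p, which impair insulin sensitivity in mouse liver and fat, had the signs of miR-26a-5p throughout. Their medians were 0.66 in HFD-EV over Chow-EV, 0.63 in HFD-LKO EV over Chow-LKO EV, -0.77 in Chow-LKO EV over Chow-EV and -0.79 in HFD-LKO EV over HFD-EV. These signs held in all 10 settings. The median of all miRNAs, as scaled here, had the same signs with smaller values, at 0.10, 0.14, -0.13 and -0.06. In Chow-LKO EV over Chow-EV, miR-26b-5p was at -0.46 ± 0.05 and miR-107-3p at -0.45 ± 0.06. miR-103-3p was at -1.08 ± 0.13 there and reached 2-fold, which neither miR-26 member did.

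**Figure D5:**
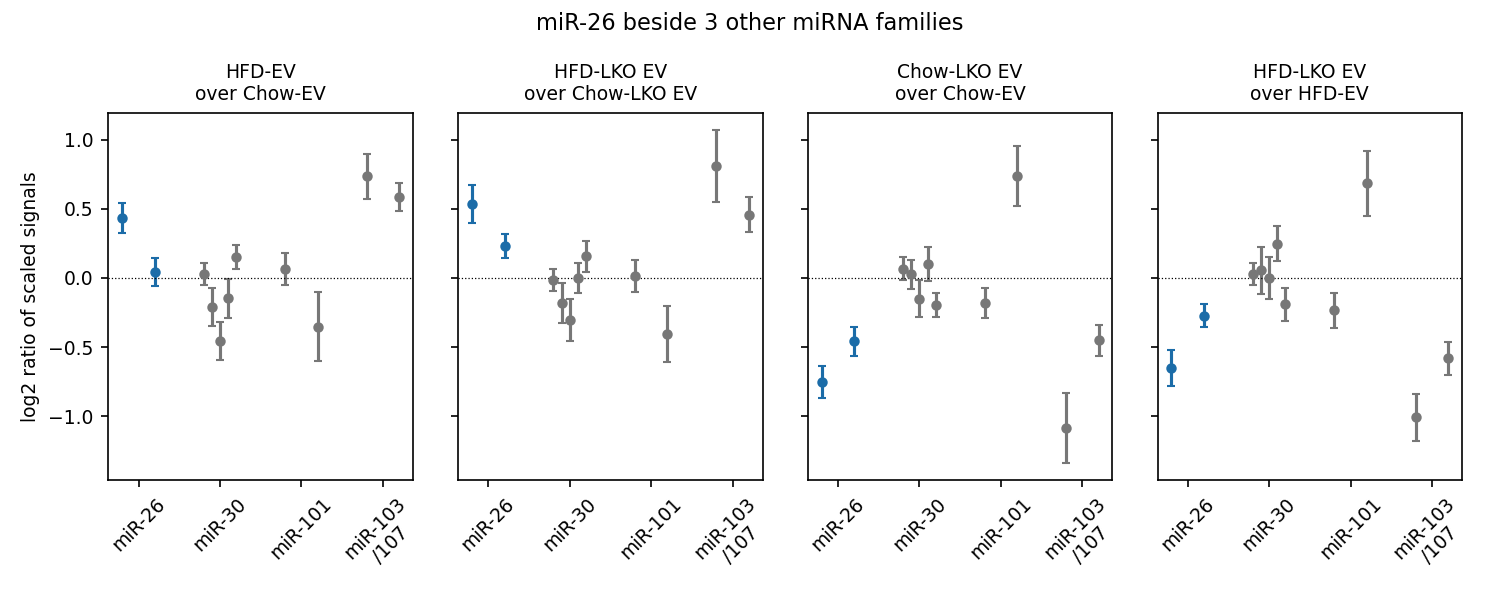
Log2 ratios of scaled signals (y axis) of the members of miR-26 (blue, miR-26a-5p left and miR-26b-5p right) and of 3 other families (grey), in 4 panels for the 4 comparisons, with bars of 2 spot SDs. In Chow-LKO EV over Chow-EV, miR-26a-5p (-0.75) and miR-26b-5p (-0.46) and both miR-103 and miR-107 lie below 0. There miR-30 lies around 0 and the miR-101 members, whose seeds differ, lie on opposite sides.

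A wider list of 12 miRNAs known for insulin action and lipid handling in liver had 10 measured members. In HFD-EV over Chow-EV, where miR-26a-5p was at 0.43, the list had a median of 0.32 (0.23 to 0.47 over 10 settings), and 7 of its members were higher and 2 lower beyond 2 spot SDs, beside 33.3% and 23.9% of all miRNAs. In HFD-LKO EV over Chow-LKO EV 8 were higher and 2 lower, beside 37.1% and 18.7% of all miRNAs. The median was 0.29 and fell to 0.072 without scaling, where 5 members lay above 0 and 5 below. miR-34a-5p, a p53-induced miRNA that raises liver lipids, had the highest value there at 1.07 ± 0.08. In Chow-LKO EV over Chow-EV 1 was higher and 6 were lower, beside 20.3% and 36.5% of all miRNAs, with a median of -0.16 that lay between -0.28 and 0.12 over 10 settings. In HFD-LKO EV over HFD-EV 2 were higher and 6 lower, beside 24.7% and 36.3% of all miRNAs, with a median of -0.27 (-0.36 to -0.17). The miR-26a-5p ratios of -0.75 in Chow-LKO EV over Chow-EV and -0.65 in HFD-LKO EV over HFD-EV lay below those of miR-122-5p, the most hepatocyte-specific miRNA known, at -0.16 ± 0.06 and 0.00 ± 0.05. Other hepatocyte miRNAs did not all lie near miR-122-5p there. miR-194-5p was at -0.68 ± 0.06 and -0.64 ± 0.03, and miR-122-3p at -0.49 ± 0.10 and -0.61 ± 0.08. miR-148a-3p was at -0.33 ± 0.05 and -0.38 ± 0.04, miR-802-5p at -0.41 ± 0.12 and -0.53 ± 0.16, and miR-192-5p at 0.05 ± 0.07 and 0.05 ± 0.06.

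Markers of the cells that such a culture could hold were given beside these ratios. All 6 hepatocyte markers were above background on all arrays, and their summed scaled signal was 183 in HFD-LKO EV, 167 in Chow-LKO EV, 186 in HFD-EV and 186 in Chow-EV. This sum is mostly miR-122-5p, whose unscaled signal in Chow-EV was 82640, against 6767 for miR-192-5p, the next highest. Of the hepatocyte markers 5 of 6 were lower beyond 2 spot SDs in Chow-LKO EV over Chow-EV, beside 36.5% of all miRNAs. Their median ratio there was -0.37, and it was -0.095 without scaling, where 4 members lay below 0 and 2 above. Similarly 4 of 6 were lower in HFD-LKO EV over HFD-EV, beside 36.3% of all miRNAs, with a median of -0.45 (-0.54 to -0.30 over 10 settings). The median was thus below 0 in both genotype comparisons, as were both miR-26 members. The median of all miRNAs, as scaled here, was also below 0 there, at -0.13 and -0.06. In HFD-EV over Chow-EV and in HFD-LKO EV over Chow-LKO EV the medians of the hepatocyte markers were -0.01 (-0.10 to 0.14 over 10 settings) and -0.04. Of 6 immune and Kupffer cell markers 4 were measured, with summed scaled signals of 1.95 in HFD-LKO EV, 1.57 in Chow-LKO EV, 1.28 in HFD-EV and 1.01 in Chow-EV. Their medians were 0.48, 0.57, 0.53 and 0.63 in HFD-EV over Chow-EV, HFD-LKO EV over Chow-LKO EV, Chow-LKO EV over Chow-EV and HFD-LKO EV over HFD-EV. Of the 4 immune markers 2 were higher and 1 was lower beyond 2 spot SDs in Chow-LKO EV over Chow-EV, beside 20.3% and 36.5% of all miRNAs, and miR-155-5p, at 0.30 ± 0.16, was within them. The counts in HFD-LKO EV over HFD-EV were 3 higher and 1 lower, beside 24.7% and 36.3%. The member that was lower in both was the leukocyte miRNA miR-142a-3p, at -0.69 ± 0.25 and -0.59 ± 0.16. It was at 0.90 ± 0.17 in HFD-EV over Chow-EV and 0.999 ± 0.24 in HFD-LKO EV over Chow-LKO EV. This marker thus had the signs of miR-26a-5p in all 4 comparisons, as did the median of all miRNAs as scaled here. In Chow-LKO EV over Chow-EV and HFD-LKO EV over HFD-EV, miR-146a-5p was instead at 1.07 ± 0.09 and 1.02 ± 0.09. miR-223-3p was higher there too, at 0.75 ± 0.085 and 0.73 ± 0.09, and miR-155-5p was at 0.54 ± 0.09 in HFD-LKO EV over HFD-EV.

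Among the other markers, 2 of 3 erythroid, 2 of 2 endothelial and 1 of 5 stellate and mesenchymal miRNAs were measured. The erythroid sum was 0.224 in HFD-LKO EV, 0.169 in Chow-LKO EV, 0.139 in HFD-EV and 0.113 in Chow-EV. The endothelial sum was 2.06 in HFD-LKO EV, 1.98 in Chow-LKO EV, 2.79 in HFD-EV and 2.51 in Chow-EV. The mesenchymal marker miR-199a-3p was at 0.0761 in HFD-LKO EV, 0.0934 in Chow-LKO EV, 0.0547 in HFD-EV and 0.0574 in Chow-EV. miR-142a-5p, miR-150-5p, miR-144-3p, all 5 epithelial markers of the miR-200 family and all 3 skeletal muscle markers were not above background on any array. The endothelial sum had the order of groups of both miR-26 members, but its markers did not move alike. miR-126a-3p was at 0.16 ± 0.05 in HFD-EV over Chow-EV, 0.08 ± 0.05 in HFD-LKO EV over Chow-LKO EV, -0.36 ± 0.05 in Chow-LKO EV over Chow-EV and -0.44 ± 0.04 in HFD-LKO EV over HFD-EV. miR-126a-5p was at -0.10 ± 0.25, -0.32 ± 0.17, -0.03 ± 0.19 and -0.25 ± 0.23 in the same comparisons, each within 2 spot SDs of 0. The part of other cells in the miR-26 ratios was not tested.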

How the data were processed

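RNA of EVs pooled from 4 animals was hybridised to 1 Agilent mouse miRNA array for each of 4 groups. The deposited intensity of each spot is the output of Agilent Feature Extraction 10.7.1.1, run by the authors with background subtraction and spatial detrending inside each array and no normalisation across arrays. The arrays shared 1 slide and 1 scan. The log2 values in the authors' tables are normalised signals, per the methods relative to U6 and with GenePix Pro as the software, and they served only as an alternative. The fold change columns of these tables hold the authors' own comparisons and were not used. The HFD-EV column of the combined table was not used either, since it is the product of such a fold change and the Chow-EV value.

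Outlier spots were left out (2146 to 2544 of 56430 per array), each probe was taken as its mean spot and each miRNA as the sum of its probes. A miRNA was called above background where over 50% of the spots of at least 1 probe were marked well above background. Each array's signals were then put relative to the 75th percentile of the 443 miRNAs that passed on every array. Each spot SD was carried through to the log2 ratio. Counts are given at 2-fold and at 2 spot SDs, over the miRNAs above background on both arrays. The number of arrays limits the precision, and no p-value was computed. The steps were tested on simulated spots with known fold changes and spot noise only. The simulated ratios were centred on the unchanged miRNAs, so the scaling between arrays was not tested there.

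The miRNAs named are the members, the opposite arms, the 5 nearest miRNAs of each member and the members of the lists of families, liver miRNAs and cell type markers. The members and the lists were chosen with earlier results of these data known. Alternatives were tried for scaling, background correction (normexp with an offset of 50), spots, probes, filter and fold. Sequences and positions are those of RefSeq on GRCm38.p6, and the starts in the authors' table equalled them for all 5 arms. The software was R 4.3.3 (limma 3.58.1) and Python 3.11.15 (numpy 2.4.6, pandas 2.3.3, matplotlib 3.10.9).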

Additional observations from a re-analysis of the deposited data

How the results depend on the processing

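The ratios of miR-26a-5p kept their sign in all 4 comparisons under the 11 alternatives, and none of the ratios of either member reached 2-fold. A ratio is given here where it moved by more than its spot SD, and the cause was not tested. Without scaling, miR-26a-5p was at 0.57 in HFD-EV over Chow-EV, 0.32 in HFD-LKO EV over Chow-LKO EV, -0.48 in Chow-LKO EV over Chow-EV and -0.74 in HFD-LKO EV over HFD-EV, and miR-26b-5p was at 0.19, 0.0095, -0.18 and -0.36. With the 75th percentile over all miRNAs, miR-26a-5p was at 0.34, 0.38, -0.60 and -0.55 and miR-26b-5p at -0.054, 0.073, -0.30 and -0.17, in the same order. With quantile normalisation, miR-26a-5p was at 0.49 in HFD-EV over Chow-EV, and miR-26b-5p was at 0.11, -0.15, -0.26 and -0.53, so that its diet ratio in LKO EVs reversed. Scaled by the summed signal, miR-26a-5p was at 0.49 in HFD-EV over Chow-EV and -0.69 in Chow-LKO EV over Chow-EV, and miR-26b-5p was at 0.105 and -0.39 there. With normexp, miR-26a-5p was at 0.46 in HFD-LKO EV over Chow-LKO EV and -0.68 in Chow-LKO EV over Chow-EV, and miR-26b-5p was at 0.18 in HFD-LKO EV over Chow-LKO EV. With Feature Extraction's total gene signal, Chow-LKO EV over Chow-EV was at -0.88 for miR-26a-5p and -0.58 for miR-26b-5p, and HFD-LKO EV over HFD-EV at -0.32 for miR-26b-5p. With the brightest probe alone, miR-26b-5p was at -0.33 in HFD-LKO EV over HFD-EV. In the authors' normalised signals, miR-26a-5p was at 0.46 in HFD-LKO EV over Chow-LKO EV and -0.68 in Chow-LKO EV over Chow-EV, and miR-26b-5p was at 0.079, -0.28 and -0.22 in HFD-LKO EV over Chow-LKO EV, Chow-LKO EV over Chow-EV and HFD-LKO EV over HFD-EV.

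The diet ratio in LKO EVs minus that in WT EVs was -0.26 for miR-26a-5p and -0.18 for miR-26b-5p without scaling. For miR-26b-5p it was also -0.27 with quantile normalisation, 0.11 with the summed signal, 0.27 with the total gene signal and 0.063 in the authors' signals. The difference between the members, an alternative added after seeing the data, moved under quantile normalisation to 0.75 in HFD-LKO EV over Chow-LKO EV, -0.46 in Chow-LKO EV over Chow-EV and -0.09 in HFD-LKO EV over HFD-EV, and in the authors' signals to -0.39 in Chow-LKO EV over Chow-EV.

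At 1.5-fold in place of 2-fold, the counts of higher and lower miRNAs were 71 and 62 in place of 11 and 8 in HFD-EV over Chow-EV, 72 and 34 in place of 16 and 5 in HFD-LKO EV over Chow-LKO EV, 53 and 67 in place of 13 and 18 in Chow-LKO EV over Chow-EV, and 70 and 93 in place of 35 and 31 in HFD-LKO EV over HFD-EV. No paired analysis was possible because each group is 1 array. For the same reason no array could be left out. The members were far above background, so signal did not limit their ratios, whereas the opposite arms had none.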
